A study of Mus musculus with 18 samples.

Results

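A set of 10 chemokine genes was followed across histone-mutant cells, knockdown cells and tumors: Ccl2, Ccl5, Ccl7, Ccl8 and Ccl20 of the CC family, Cxcl1, Cxcl5, Cxcl10 and Cxcl12 of the CXC family, and Cx3cl1, the only CX3C chemokine. They were taken by symbol, and all 10 were found among the 20325 genes of each table used here. Chemokines are small secreted proteins, named after the spacing of their first cysteines, that guide leukocytes by binding G protein-coupled receptors on the cell surface. Mesenchymal cells are known sources of them: Cxcl12 is a constitutive product of stromal cells, whereas Ccl2, Ccl7, Cxcl1 and Cxcl5 are classical targets of inflammatory signalling through NF-kB, and Cxcl10 is a classical interferon target. K36M replaces lysine by methionine at residue 36 of histone H3 and is known to block the enzymes that methylate that residue.

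The 12 cultured libraries are of C3H10T1/2, a mesenchymal line of C3H mouse embryo origin that can form several connective tissues, grown at passage 10 to 15. Stable lines expressed FLAG-HA-tagged wild-type H3.3 (H3.3WT, n = 2), H3.3 with K36M (H3.3K36M, n = 2) or H3.1 with K36M (H3.1K36M, n = 2), so that the H3.3WT reference also carries a tagged histone. Parental cells received a scramble siRNA (control siRNA, n = 3) or siRNAs against the H3K36 methyltransferases Nsd1, Nsd2 and Setd2 (HMT siRNA, n = 3). Tumors (n = 6) grew from 2000000 H3.3K36M cells injected with Matrigel under the skin of both flanks of athymic female SCID mice aged 6 to 8 weeks, and were harvested after 5 to 6 weeks, so that their RNA also comes from host cells. Each histone construct is represented by a single line, and such hosts lack T cells but keep macrophages, granulocytes and vessels. The labels do not state whether the libraries of a group came from separate cultures, or whether tumors shared a mouse, so p-values measure the spread between libraries, which may be technical.

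The 3 siRNA targets were checked first. On the normalised estimated count scale, Setd2 was 1114, 1063 and 1224 in HMT siRNA cells against 3225, 3114 and 3401 in control siRNA cells (log2 fold change -1.52 ± 0.05 SE). Whsc1, the symbol listed for Nsd2, changed by -0.59 ± 0.04 and Nsd1 by -0.52 ± 0.04, with every HMT siRNA library below every control library. The 8 mesenchymal markers, Col1a1 and Pdgfrb among them, were present in every cultured library with a summed level of at least 445625. That sum is led by collagens, and single markers differed between the lines, as given below. Depth ran from 13993307 to 56041798 estimated reads per library. Low values (1 to 20 estimated reads) came out whole in 84.1 to 86.7% of cases in 14 libraries but in only 76.1 to 79.1% in the 4 that express H3.3WT or H3.3K36M. No batch is labelled, and comparisons across that line cannot be told apart from it, namely H3.3WT with control siRNA cells, either comparison of H3.1K36M cells, and tumors with H3.3K36M cells.

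The start regions of 5 of the 10 genes are shown because they belong to members that moved in opposite directions in tumors, as given below: Cxcl10, Ccl8 and Cx3cl1 were higher there, Cxcl1 and Cxcl12 lower. The 250 bases before the RefSeq start were available for 6 members on GRCm38.p6 (Ccl20 was the sixth). Capitals mark matches, on either strand, to the letters searched for NF-kB (GGG and TTCC with any 3 bases between them) and for interferon regulatory factors (GAAA and GAAA with any 2 bases between them). Reads of the expression tables were aligned to mm9, and sequences were joined to expression by symbol alone.
Cxcl10 (chr5:92348890-92349139, minus strand): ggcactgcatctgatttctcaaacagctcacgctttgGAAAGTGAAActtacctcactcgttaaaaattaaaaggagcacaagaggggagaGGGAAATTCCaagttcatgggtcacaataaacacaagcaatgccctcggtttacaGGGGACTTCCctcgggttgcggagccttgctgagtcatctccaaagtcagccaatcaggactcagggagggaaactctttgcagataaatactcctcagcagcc
Cxcl1 (chr5:90890995-90891244, plus strand): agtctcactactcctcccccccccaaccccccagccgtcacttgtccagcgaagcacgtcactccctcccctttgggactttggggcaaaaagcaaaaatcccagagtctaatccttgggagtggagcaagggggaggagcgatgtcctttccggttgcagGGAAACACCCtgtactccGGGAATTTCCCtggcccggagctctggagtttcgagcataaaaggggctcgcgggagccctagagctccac
Ccl8 (chr11:82114935-82115184, plus strand): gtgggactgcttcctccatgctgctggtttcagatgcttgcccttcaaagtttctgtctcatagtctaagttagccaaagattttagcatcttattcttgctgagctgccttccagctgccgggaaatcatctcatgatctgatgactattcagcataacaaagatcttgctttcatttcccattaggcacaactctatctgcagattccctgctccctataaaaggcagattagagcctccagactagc
Cxcl12 (chr6:117168285-117168534, plus strand): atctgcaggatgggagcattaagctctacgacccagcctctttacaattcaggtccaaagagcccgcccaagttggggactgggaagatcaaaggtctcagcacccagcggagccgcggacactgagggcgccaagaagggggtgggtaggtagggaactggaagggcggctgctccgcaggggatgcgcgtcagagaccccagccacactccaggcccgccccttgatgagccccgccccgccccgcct
Cx3cl1 (chr8:94771930-94772179, plus strand): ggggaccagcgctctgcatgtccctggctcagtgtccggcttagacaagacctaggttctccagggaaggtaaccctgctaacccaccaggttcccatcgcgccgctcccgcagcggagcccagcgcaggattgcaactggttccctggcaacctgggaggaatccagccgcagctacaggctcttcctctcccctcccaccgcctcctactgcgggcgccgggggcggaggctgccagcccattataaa
The NF-kB letters were present in 3 of the 6 members (Ccl20, Cxcl1 and Cxcl10), against 4.65% of 32851 RefSeq start regions of that length. Cxcl10 held 2 such matches, at bases -159 to -150 and -104 to -95 from the start, and Cxcl1 held 3, of which 2 overlap by all but 1 base at each end. The interferon letters were present in Cxcl10 alone, at -213 to -204, against 2.98% of all start regions. The AP-1 letters TGANTCA were found in Cxcl10 (6.75% of all), TATAAA in Cx3cl1 and Ccl8 (12.4% of all), and the GC box GGGCGG in Cxcl12 and Cx3cl1 (32.7% of all). Cxcl12 held 5 GC box matches and Cx3cl1 held 1. Both contained 14 CpG dinucleotides, above the median of 6 over all start regions, Cxcl10 contained 5 and Ccl8 contained 1. These matches describe letters, and binding was not measured.

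H3.3K36M cells were compared with H3.3WT cells to ask how the mutant histone line differs from a line expressing the normal one. Of the 10 chemokines, 7 passed the filter on low values (at least 10 in at least 2 libraries). Ccl5 did so only through the H3.3K36M libraries, where it is high, and is left out of the counts. Of the other 6, 5 were higher in H3.3K36M cells and none was lower at an adjusted p under 0.05 (limma, Benjamini-Hochberg over all genes). The background is 37.5% of 13186 genes called higher and 33.3% called lower. At least 2-fold higher were 3 of the 6 (Ccl2, Ccl7 and Cxcl5), against 12.2% of all genes. The median log2 fold change of the 6 was 1.24, beside 0.024 over all genes tested. Counts of members and of other lists below likewise leave out genes that passed the filter only through their highest group. The backgrounds cover all genes tested and keep such genes, so the 2 are not fully matched. Fold changes and their SE are on the log2(normalised estimated count + 1) scale throughout, which understates changes of low genes. Levels are not divided by transcript length and are therefore compared only within a gene.

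Ccl2, the main attractant of monocytes through Ccr2, was 23.8 and 17.1 in the H3.3WT libraries and 691 and 734 in the H3.3K36M libraries. The means differ 34.8-fold (log2 fold change 5.07 ± 0.17 SE, adjusted p = 3.44e-15), with no overlap. Ccl7, a neighbouring gene whose product also acts on Ccr2, was 10.9 and 6.40 in H3.3WT cells and 244 and 247 in H3.3K36M cells. This 28.3-fold difference in means (4.71 ± 0.29, adjusted p = 6.12e-11) was again without overlap. Ccl5, which attracts T cells and monocytes, was 0 and 2.13 in H3.3WT cells, the latter value standing for 2.00 estimated reads, and 21.5 and 22.3 in H3.3K36M cells, for 49.00 and 31.00 reads. Its fitted difference of 3.69 ± 0.81 (adjusted p = 0.000491) rests on the pseudocount, since 1 reference library is listed at 0, and on the filter it passed through the H3.3K36M libraries alone.

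Cxcl5, a ligand of the neutrophil receptor Cxcr2, was 194 and 176 in H3.3WT cells and 569 and 606 in H3.3K36M cells, a 3.18-fold difference (1.66 ± 0.12, adjusted p = 3.51e-10). Cxcl1, which acts on the same receptor, was 159 and 161 in H3.3WT cells and 174 and 213 in H3.3K36M cells. Both mutant libraries lay above both references, but the difference of 0.27 ± 0.17 did not pass the threshold (adjusted p = 0.164, 95% interval -0.09 to 0.62). The 2 Cxcr2 ligands thus gave different readings in the same libraries.

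Cx3cl1, a membrane-bound chemokine that is shed by Adam10 and Adam17, was 1272 and 1347 in H3.3WT cells and 2347 and 2235 in H3.3K36M cells (0.81 ± 0.05, adjusted p = 1.85e-10). Cxcl12, the ligand of Cxcr4 that retains stem and progenitor cells in their niches, was 20825 and 20881 in H3.3WT cells and 23694 and 24052 in H3.3K36M cells. That 1.14-fold difference (0.20 ± 0.03, adjusted p = 5.18e-05) fell to 0.02 with adjusted p = 0.523 after quantile normalisation, so the call depends on the scaling. Ccl8, Cxcl10 and Ccl20 did not pass the filter in cultured cells. Ccl8, a further monocyte and T cell attractant, was 0 and 1.07 in H3.3WT cells and 10.5 and 5.03 in H3.3K36M cells, the latter for 24 and 7 reads. Cxcl10, a ligand of Cxcr3, was listed at 0 in both H3.3WT libraries and stood at 8.00 reads in each H3.3K36M library. Ccl20, the ligand of Ccr6, did not exceed 1.00 read in any cultured library.

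**Figure D1:**
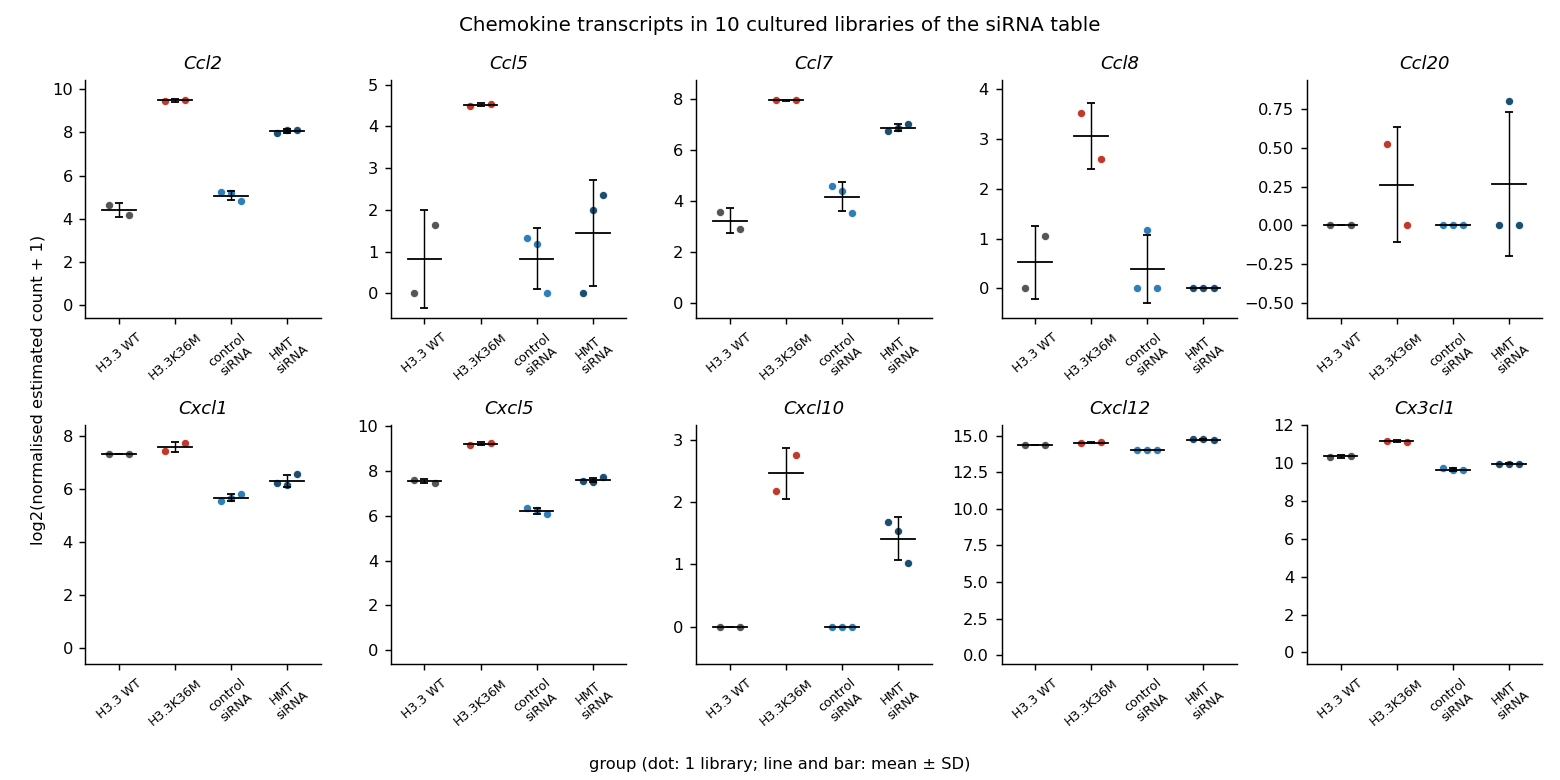
Level of each of the 10 chemokines (y axis, log2 of normalised estimated count + 1, each panel with its own range) in H3.3WT, H3.3K36M, control siRNA and HMT siRNA cells; dots are libraries, lines and bars are mean and SD (n = 2, 2, 3 and 3). Ccl2 and Ccl7 show the order H3.3K36M, HMT siRNA, then both references, whereas Cxcl12 was highest in HMT siRNA cells and Cxcl1 was higher in both tagged-histone lines than in either siRNA group.

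HMT siRNA cells were set against control siRNA cells to ask how lowering the methyltransferases affects the same genes without a mutant histone. Here 6 of 6 chemokines (Ccl5 apart) were higher, against a background of 31.9% of genes called higher and 31.7% called lower. Ccl2, Ccl7 and Cxcl5 were at least 2-fold higher, 3 of 6 against 5.3% of all genes. The median over the 6 was 1.04, beside 0.002 over all genes. Ccl2 was 36.4, 35.1 and 27.7 in control siRNA cells and 248, 276 and 277 in HMT siRNA cells, an 8.07-fold difference (2.98 ± 0.14, adjusted p = 1.08e-12). Ccl7 was 22.8, 20.1 and 10.4 in control siRNA cells and 106, 115 and 129 in HMT siRNA cells, 6.58-fold higher (2.72 ± 0.24, adjusted p = 1.28e-08). For both genes every knockdown library lay above every control library.

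Cxcl5 was 78.9, 75.3 and 65.7 in control siRNA cells and 186, 181 and 207 in HMT siRNA cells (1.37 ± 0.10, adjusted p = 4.12e-10). Cxcl1 was 45.5, 50.2 and 55.3 in control siRNA cells and 75.1, 70.1 and 94.9 in HMT siRNA cells (0.65 ± 0.14, adjusted p = 0.000406). Both neutrophil attractants were therefore separated between knockdown and control libraries. Cxcl12 was 16922, 16928 and 16695 in control siRNA cells and 27892, 27752 and 27211 in HMT siRNA cells, 1.64-fold higher (0.71 ± 0.03, adjusted p = 1.06e-13). Cx3cl1 was 849, 791 and 795 in control siRNA cells and 1007, 989 and 1009 in HMT siRNA cells (0.30 ± 0.04, adjusted p = 8.83e-06). Ccl5 did not pass: it was 1.52, 1.25 and 0 in control siRNA cells and 0, 2.98 and 4.13 in HMT siRNA cells, with overlapping libraries (0.62 ± 0.66, adjusted p = 0.43, 95% interval -0.77 to 2.00). Cxcl10 was listed at 0 in the 3 control libraries and stood at 2.00, 2.55 and 1.00 estimated reads in the knockdown libraries, and Ccl8 was listed at 0 in all 3 knockdown libraries.

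The size of the 2 responses was compared by an interaction term in the fit of the 10 cultured libraries. The H3.3K36M response exceeded the HMT siRNA response for 3 of 6 chemokines (Ccl5 apart), against 27.5% of all genes called in that direction. The difference between the responses was 2.09 ± 0.22 for Ccl2 (adjusted p = 1.73e-07), 2.00 ± 0.38 for Ccl7 (adjusted p = 0.00022), 0.50 ± 0.07 for Cx3cl1 (adjusted p = 7.72e-06) and 3.08 ± 1.04 for Ccl5 (adjusted p = 0.0178). The Ccl5 call was lost without H3.3WT replicate 1, the library listed at 0 (2.25, adjusted p = 0.113). Cxcl12 went the other way: its HMT siRNA response exceeded its H3.3K36M response by 0.52 on the log2 scale (-0.52 ± 0.04, adjusted p = 1.14e-08), against 27.4% of all genes called in that direction. For Cxcl5 the difference was 0.29 ± 0.15 (adjusted p = 0.114, 95% interval -0.03 to 0.61) and for Cxcl1 it was -0.39 ± 0.22 (adjusted p = 0.14, 95% interval -0.84 to 0.07), neither past the threshold. The Cxcl5 difference passed without control siRNA replicate 3 (0.37, adjusted p = 0.0347).

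The 2 references themselves differed. H3.3WT cells held less Ccl2 (-0.68 ± 0.15, adjusted p = 0.000936) and less Ccl7 (-0.93 ± 0.27, adjusted p = 0.00644) than control siRNA cells, 2 of 6 against 28.4% of all genes called lower. Without H3.3WT replicate 2 the Ccl7 difference was -0.58 (adjusted p = 0.137). They held more Cxcl1 (1.65 ± 0.15, adjusted p = 2.76e-08), Cxcl5 (1.32 ± 0.11, adjusted p = 4.32e-09), Cx3cl1 (0.69 ± 0.05, adjusted p = 8.64e-10) and Cxcl12 (0.31 ± 0.03, adjusted p = 9.45e-08), 4 of 6 against 30.4% called higher. Cxcl1 was also higher in both H3.3WT libraries than in any HMT siRNA library, a comparison that was not tested.

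In order of level, Ccl2 ran from H3.3K36M to HMT siRNA, control siRNA and H3.3WT cells, with no overlap between neighbours. Ccl7 had the same order, but its 2 references overlapped (10.4 to 22.8 against 6.40 to 10.9). Cxcl5 was highest in H3.3K36M cells, overlapped between HMT siRNA and H3.3WT cells, and was lowest in control siRNA cells. Cxcl12 ran from HMT siRNA to H3.3K36M, H3.3WT and control siRNA cells, and Cx3cl1 from H3.3K36M to H3.3WT, HMT siRNA and control siRNA cells, each step without overlap. The share of all genes without overlap was not computed, so these orders only describe levels.

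**Figure D2:**
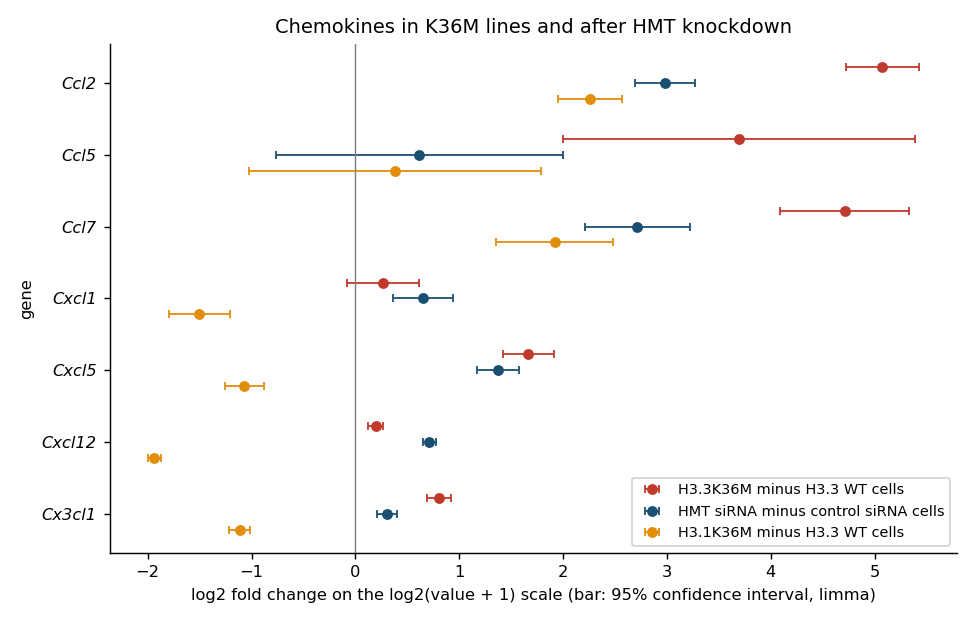
Log2 fold change (x axis, log2(value + 1) scale) of the 7 tested chemokines in H3.3K36M against H3.3WT cells, HMT siRNA against control siRNA cells and H3.1K36M against H3.3WT cells; bars are limma 95% confidence intervals, and both histone comparisons share the H3.3WT libraries. Ccl2 and Ccl7 lie to the right of 0 in all 3 comparisons, while Cxcl1, Cxcl5, Cxcl12 and Cx3cl1 lie to the left of 0 in H3.1K36M cells.

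Other genes of chemokine signalling were summarised from lists chosen with earlier results of these data known. Their counts stand against the same backgrounds, 37.5% higher and 33.3% lower for H3.3K36M against H3.3WT cells and 31.9% and 31.7% for HMT siRNA. In H3.3K36M cells 2 of 5 other chemokine ligands were higher and 1 lower: Cxcl16 rose by 2.13 ± 0.47 and Ccl9 by 0.88 ± 0.08, and Ccl6 changed by -2.81 ± 0.39. After HMT siRNA, Ccl9 was higher (1.08 ± 0.07), 1 of 5, and none was lower. Ccl17 and Ppbp passed the filter only through the H3.3K36M libraries. Ccl17 was 6.95 and 7.47 in H3.3WT, 24.5 and 25.9 in H3.3K36M, 1.52, 3.76 and 1.73 in control siRNA and 9.96, 10.4 and 7.22 in HMT siRNA cells. Of 7 receptors, 2 were higher and 2 lower in H3.3K36M cells, shares near the background. Ccr7, which guides dendritic and T cells to lymph nodes, was 8.94 and 14.9 in H3.3WT cells and 269.6 and 278 in H3.3K36M cells (4.45 ± 0.55, adjusted p = 1.03e-06). Cxcr1 was 72.5 and 61.9 in H3.3WT cells and 0.44 and 0 in H3.3K36M cells. Ccr2, the receptor of Ccl2 and Ccl7, did not exceed 10.9 in any cultured library of the siRNA table and was not tested there. The sheddases of Cx3cl1 were lower in both comparisons: Adam17 changed by -0.65 ± 0.04 and Adam10 by -0.30 ± 0.04 in H3.3K36M cells, and they changed by -0.38 ± 0.04 and -0.60 ± 0.03 after HMT siRNA. They were the only counted genes of atypical receptors and ligand processing, 2 of 2, against backgrounds of 33.3% and 31.7% called lower. Ccrl1 was also tested but passed the filter only through the H3.3WT libraries.

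Of the NF-kB pathway and its feedback targets, 10 of 17 were higher and 3 lower in H3.3K36M cells (backgrounds 37.5% and 33.3%), with a list median of 0.48. After HMT siRNA 12 of 17 were higher and 1 lower (31.9% and 31.7%), with a median of 0.26. Ptgs2, the inducible cyclooxygenase, rose by 3.34 ± 0.09 in H3.3K36M cells and by 2.58 ± 0.07 after HMT siRNA. Nfkb2, the precursor of the p52 subunit, rose by 1.10 ± 0.05 and 0.64 ± 0.04. The interferon response list moved in both directions, with 5 of 11 higher and 4 lower in H3.3K36M cells, near the backgrounds of 37.5% and 33.3%, and 6 of 11 higher and 2 lower after HMT siRNA (31.9% and 31.7%). Oasl2 rose in both comparisons (2.92 ± 0.35 and 2.13 ± 0.29), while Ifit3 changed by -1.61 ± 0.10 in H3.3K36M cells.

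Markers of other cell types were read in the same libraries. The summed level of 12 macrophage markers was 254 to 267 in H3.3WT cells and 954 to 975 in H3.3K36M cells, and 294 to 384 in control siRNA cells and 465 to 492 in HMT siRNA cells. Such sums add genes of unequal length and are led by the most abundant ones. Cd74 alone was 48.6 and 41.6 in H3.3WT, 556 and 535 in H3.3K36M, 146, 179 and 154 in control siRNA and 181, 179 and 161 in HMT siRNA cells. Of 5 macrophage markers, 3 were higher and 1 lower in H3.3K36M cells (backgrounds 37.5% and 33.3%). After HMT siRNA 1 was higher and 1 lower (31.9% and 31.7%). The leukocyte gene Ptprc was 3.51 and 5.03 in H3.3K36M cells and listed at 0 in all H3.3WT, control siRNA and HMT siRNA libraries. Neutrophil markers summed to at most 12.04 and lymphocyte and NK markers to at most 7.01 in any cultured library of the siRNA table. Of the red cell markers Hba-a1 alone made the difference: it was 1.99 and 6.40 in H3.3WT, 664 and 631 in H3.3K36M, 3.04, 1.25 and 0 in control siRNA and 13.3, 11.9 and 14.4 in HMT siRNA cells, while Hba-a2 and Hbb-b1 were listed at 0 in all of them. The mean endothelial sum was 956 in H3.3WT and 440 in H3.3K36M cells, and 234 in control and 90.8 in HMT siRNA cells. The mean keratinocyte sum was 390 and 129, and 263 and 465. The mean pericyte sum was 19465 and 13352, and 14388 and 13222. Among 8 mesenchymal markers, 4 were higher and 3 lower in H3.3K36M than in H3.3WT cells, and 5 higher and 1 lower after HMT siRNA. Col3a1 changed by -1.50 ± 0.03 and Thy1 by 3.50 ± 0.09 in H3.3K36M cells. Thy1 was 86.5 and 69.3 in H3.3WT and 890 and 881 in H3.3K36M cells. It was 834, 861 and 770 in control siRNA cells. The part of these markers in the chemokine differences was not tested.

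H3.1K36M cells carry the same substitution on the replication-coupled histone and were compared with H3.3WT cells in the second table, whose values are scaled separately. No line with wild-type H3.1 is among the samples, so histone variant and substitution cannot be told apart in this comparison. Of 6 chemokines (Ccl5 apart, for the same reason), Ccl2 and Ccl7 were again higher, against 41.1% of all genes called higher, and 4 were lower, against 38.4% called lower. All 6 differed by at least 2-fold, where the backgrounds are 12.6% higher and 12.2% lower. Ccl2 was 32.1 and 23.1 in H3.3WT cells and 130.01 and 138 in H3.1K36M cells (2.26 ± 0.14, adjusted p = 1.18e-09). Ccl7 was 14.7 and 8.66 in H3.3WT cells and 34.9 and 59.4 in H3.1K36M cells (1.92 ± 0.26, adjusted p = 8.96e-06). Both genes separated the lines without overlap.

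The 4 members that were lower were Cxcl12, Cx3cl1, Cxcl1 and Cxcl5. Cxcl12 was 28022 and 28268 in H3.3WT cells and 7315 and 7406 in H3.1K36M cells (-1.93 ± 0.03, adjusted p = 4.94e-17), a 3.82-fold lower mean. Cx3cl1 changed by -1.11 ± 0.05 (adjusted p = 1.09e-11), Cxcl1 by -1.50 ± 0.14 (adjusted p = 9.59e-08) and Cxcl5 by -1.07 ± 0.09 (adjusted p = 2.6e-08). The Cxcl5 call was lost when all 12 libraries of that table, tumors included, shared 1 fit (adjusted p = 0.354). Ccl5 was 0 and 2.89 in H3.3WT cells and 0.70 and 2.88 in H3.1K36M cells, at most 3.00 reads, with no call (0.38, 95% interval -1.03 to 1.79, adjusted p = 0.604). The macrophage marker sum was 342 to 361 in H3.3WT and 798 to 805 in H3.1K36M cells, and its part in these differences was not tested.

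Set directly against H3.3K36M cells, H3.1K36M cells held less of all 6 counted chemokines, against a background of 32.8% of genes called lower and 35.4% called higher. All 6 were at least 2-fold lower, against 10.3% of all genes. Ccl5, which passed the filter only through the H3.3K36M libraries, was not counted. The log2 fold changes were -2.80 ± 0.14 for Ccl2, -2.80 ± 0.26 for Ccl7, -2.70 ± 0.09 for Cxcl5, -2.10 ± 0.03 for Cxcl12, -1.89 ± 0.05 for Cx3cl1 and -1.73 ± 0.14 for Cxcl1. The median of the 6 was -2.40, beside 0.006 over all genes. The direction was not common to every chemokine, since Ccl9 was higher by 2.52 ± 0.06 in H3.1K36M cells. Among the NF-kB genes 7 of 18 were higher and 9 lower, with Tnfaip3 higher by 0.97 ± 0.09 and Icam1 changed by -1.86 ± 0.31. The interferon response list had 9 of 11 lower and none higher, beside the same 32.8% and 35.4%. The H3.1K36M and H3.3K36M comparisons share the H3.3WT libraries, and each construct is a single line.

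Tumors were compared with the cultured H3.3K36M cells from which they grew. Of the 10 chemokines 9 were tested. Ccl8 and Cxcl10 passed the filter only through the tumors and Cxcl5 only through the cells, so these 3 had to differ and are not counted. Of the other 6, 4 were higher and 2 lower, against backgrounds of 41% of 14842 genes called higher and 34.2% called lower. At least 2-fold, 4 were higher and 1 lower (Cxcl12), where the backgrounds are 26.5% and 20.7%. The median over the 6 was 2.09. The median of all genes was 0.14 and became -0.12 after quantile normalisation, so differences of that size cannot be read. Bulk tumor RNA mixes injected cells and host cells, and a change in the share of a cell type cannot be told apart from a change in RNA per cell.

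The monocyte attractants rose in tumors. Ccl2 was 911 and 968 in H3.3K36M cells and 6535, 5772, 6460.1, 7649, 5526 and 7125 in the tumors, 6.93-fold higher (2.78 ± 0.13, adjusted p = 9.2e-08). Ccl7 rose from 321 and 326 to between 3409 and 5089, with a median of 4020.1 (3.67 ± 0.15, adjusted p = 3.94e-08). Ccl8 rose from 13.9 and 6.64 to between 3996 and 10983, with a median of 7786, a 766-fold difference in means. It passed the filter through the tumors alone, so its test adds no support. No tumor overlapped the cells for any of the 3. The spread among tumors was small for Ccl2, with a highest tumor 1.38 times the lowest, and wider for Ccl8 at 2.75 times.

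Ccl5, Cxcl10 and Cx3cl1, whose products act on T cells as well as monocytes, also rose. Ccl5 was 28.3 and 29.4 in H3.3K36M cells and 708 to 1006 in tumors, with a median of 855 (4.82 ± 0.15, adjusted p = 6.18e-09). Cxcl10 was 4.62 and 7.59 in the cells and 964 to 1734 in tumors, with a median of 1271. Its means differ 211-fold, but it too passed the filter through the tumors alone, so its test adds no support. Cx3cl1 rose from 3095 and 2951 to between 5725 and 9859, with a median of 8186 (1.39 ± 0.17, adjusted p = 7.11e-05). All 6 tumors lay above both cell libraries for these genes, and tumor 6 was the highest for both Cxcl10 and Cx3cl1.

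Cxcl12, Cxcl5 and Cxcl1 went the other way. Cxcl12 was 31237 and 31748 in H3.3K36M cells and 211, 331, 589, 185, 701 and 450 in the tumors, in replicate order. The mean was 76.6-fold lower (-6.42 ± 0.48, adjusted p = 2.58e-06), and the highest tumor was 3.79 times the lowest. Cxcl5 was 750.4 and 800.2 in the cells and 2.01, 9.95, 29.9, 3.04, 2.89 and 8.03 in the tumors. Those tumor values stand for 2 to 22 estimated reads. Cxcl5 passed the filter through the cells alone, so its test adds no support. Cxcl1 was 229.5 and 281 in the cells and 77.9 to 205 in the tumors, with a median of 129 (-0.91 ± 0.35, adjusted p = 0.0381). That call was lost without either cell library (adjusted p = 0.0904 and 0.202), without tumor 2 (0.0683) or without tumor 3 (0.0648). Ccl20 was not tested and did not exceed 7.22, or 5.00 reads, in any tumor.

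**Figure D3:**
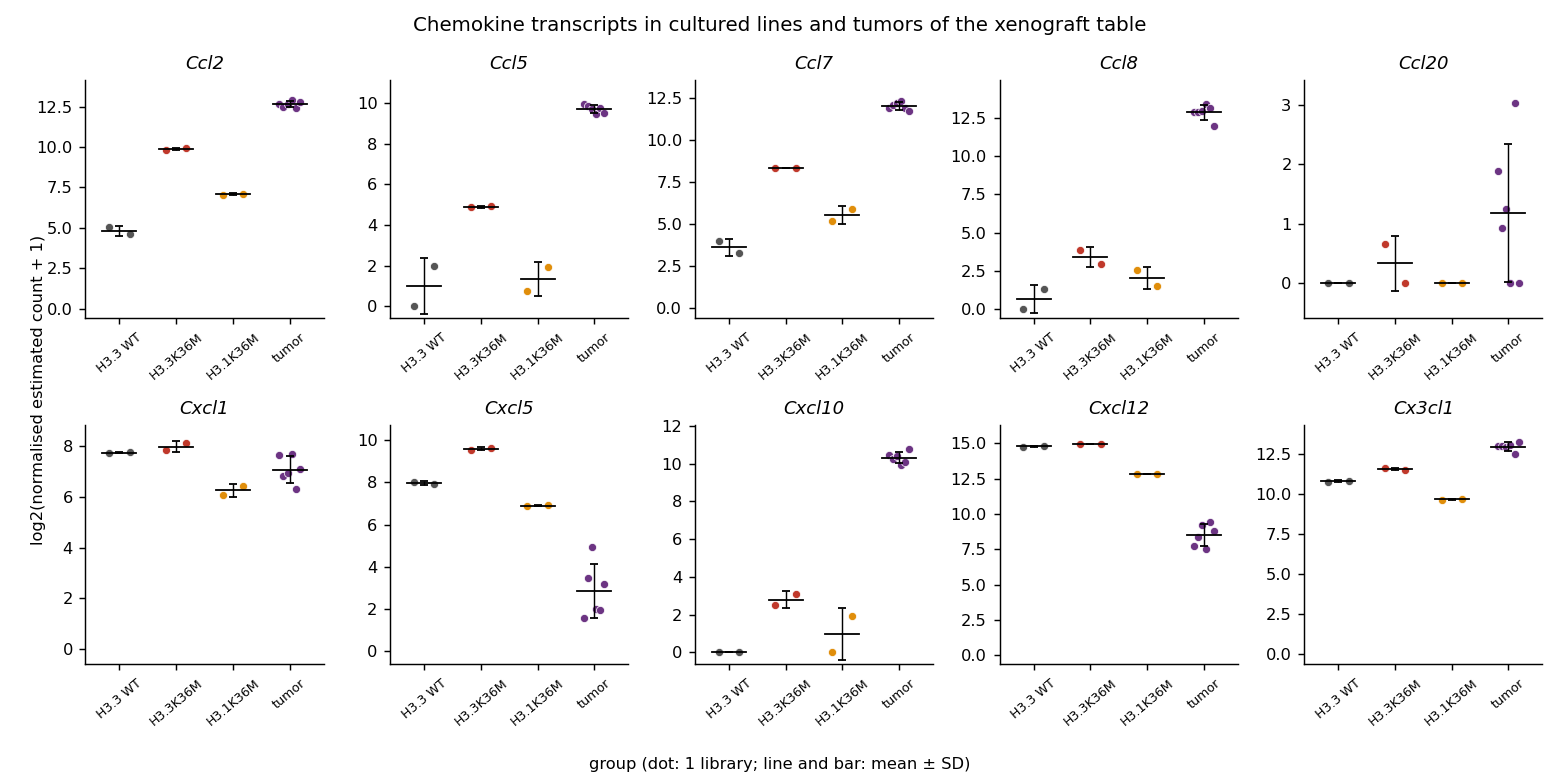
Level of each of the 10 chemokines (y axis, log2 of normalised estimated count + 1, each panel with its own range) in cultured H3.3WT, H3.3K36M and H3.1K36M cells (n = 2 each) and tumors (n = 6); dots are libraries, lines and bars are mean and SD. Ccl2, Ccl5, Ccl7, Ccl8, Cxcl10 and Cx3cl1 were higher in every tumor than in any cultured library, and Cxcl12 and Cxcl5 were lower in every tumor than in any cultured library.

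In this table the levels of Ccl2 and Ccl7 ran from tumors to H3.3K36M, H3.1K36M and H3.3WT cells with no overlap between neighbours. Ccl8 had that order too, but at few reads in culture, where it was not tested. Its estimated reads were 24 and 7 in H3.3K36M, 7 and 2 in H3.1K36M and 0 and 1 in H3.3WT cells. Ccl5 and Cxcl10 had the same order, but their H3.1K36M and H3.3WT libraries overlapped. Cxcl12 and Cxcl5 ran from H3.3K36M to H3.3WT, H3.1K36M and tumors without overlap. Cxcl1 ran from H3.3K36M to H3.3WT cells, tumors and H3.1K36M cells, of which the last 2 overlapped. Here too the share of all genes without overlap was not computed.

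Receptors of these ligands were among the genes that rose in tumors. Of 9 receptors, 5 were higher and 2 lower (backgrounds 41% and 34.2%), and 6 more passed the filter only through the tumors, Cx3cr1, Ccr1 and Cxcr3 among them. Cx3cr1, the receptor of Cx3cl1, was 7.0 and 6.25 in the cells and 4638 to 6741 in the tumors (9.44 ± 0.14). Ccr1, a receptor of several CC chemokines, was 0 and 0.95 in the cells and 1791 to 2516 in the tumors. Cxcr3, the receptor of Cxcl10, was listed at 0 in the cells and was 171 to 410 in the tumors. Others were singled out after their values were seen: Ccr2, the receptor of Ccl2 and Ccl7, was 13.1 and 12.2 in the cells and 1065 to 2063 in the tumors, and Cxcr4 was 19.6 and 18.04 in the cells and 563 to 784 in the tumors. Cxcr7, the atypical receptor of Cxcl12, was 1479 and 1423 in the cells and 166 to 267 in the tumors. Ccr6, the receptor of Ccl20, did not exceed 1.44 in any tumor.

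Of 24 other chemokine ligands tested, 18 passed the filter only through 1 of the groups and are not counted. Of the other 6, 5 were higher in tumors and none lower (backgrounds 41% and 34.2%). Ccl12, Cxcl14 and Ccl4 were listed at 0 in both cell libraries and were 3561 to 6170, 773 to 1873 and 387 to 609 in the tumors. Pf4, a platelet and macrophage chemokine, was 2.31 and 1.90 in the cells and 1952 to 6659 in the tumors. Of 11 interferon response genes all were higher in tumors, with a list median of 4.06 and Irf7 at 7.84 ± 0.19. Of the NF-kB genes 13 of 18 were higher and 2 lower. Icam1 rose by 5.15 ± 0.14 and Traf1 by 4.96 ± 0.13, whereas Ptgs2 changed by -4.31 ± 0.75. Of 3 genes of atypical receptors and ligand processing, none was higher and 1 was lower, and 4 more passed the filter only through 1 of the groups.

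Markers of host cell types moved with these results. The summed level of 12 macrophage markers was 1259 to 1286 in H3.3K36M cells and 162771 to 207742 in tumors. Of these 12, 7 could be counted and all 7 were higher. For this list and those that follow, the backgrounds are 41% of genes called higher and 34.2% called lower. The sum of 8 mesenchymal markers was 588207 to 635547 in the cells and 148281 to 204272 in tumors, a 3.55-fold lower mean, with 5 of 8 lower and 3 higher. Endothelial markers summed to 551 to 610 in the cells and 10211 to 29570 in tumors (2 of 3 counted higher). Neutrophil markers summed to 5.95 to 9.01 in the cells and 1334 to 1969 in tumors, and lymphocyte and NK markers to 8.54 to 9.25 and 1129 to 3457. Keratinocyte markers ranged from 165 to 28872 among tumors (162 to 178 in the cells), red cell markers from 7664 to 19469 (836 to 885) and pericyte markers from 10706 to 14405 (16932 to 18295, with 2 of 3 counted higher and 1 lower). In the cells S100a9, Retnlg and Mpo of the neutrophil list and Cldn5 of the endothelial list were at 0, and no marker of these lists was at 0 in all tumors. The part of these cell types in the chemokine levels of tumors was not tested.

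**Figure D4:**
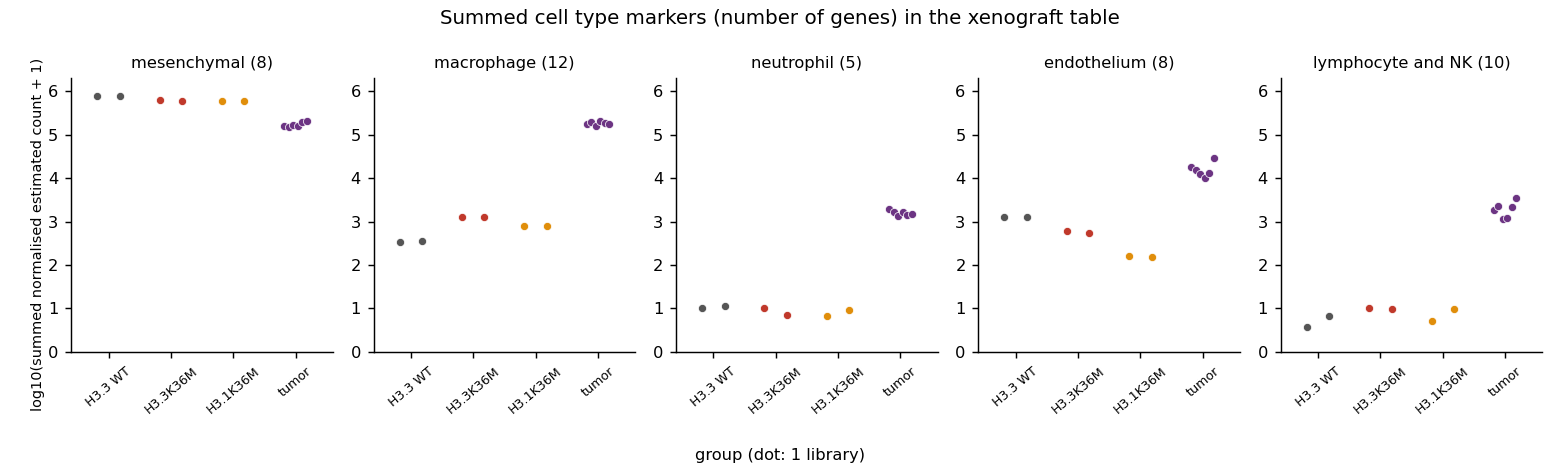
Summed level of cell type markers (y axis, log10 of summed normalised estimated count + 1) in cultured lines (n = 2 each) and tumors (n = 6) of the second table; each dot is a library and the number of genes in a list is in its panel title. Macrophage, neutrophil, endothelial and lymphocyte and NK markers were higher in every tumor than in any cultured library, and the mesenchymal sum was lower in every tumor.

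Several members sit in chemokine gene clusters, and their neighbours are named here for position, after their values were seen. By RefSeq order on chromosome 11, Ccl2, Ccl7, Ccl11, Ccl12, Ccl8 and Ccl1 follow each other. In cultured H3.3K36M cells of the second table Ccl11, an eosinophil attractant, was 4.13 and 2.85 and Ccl12 was listed at 0. Ccl11 and Ccl12 thus stood for at most 7.15 estimated reads in any cultured library of that table. In tumors all were detected, with Ccl11 at 308 to 664, Ccl12 at 3561 to 6170 and Ccl1 at 13.8 to 77.9. Ccl5 is followed on the same chromosome by Ccl9 and Ccl6. Ccl9 was 173 and 176 in H3.3WT and 310.4 and 333 in H3.3K36M cells of the siRNA table, and Ccl6 was 72.5 and 83.2 against 9.64 and 10.8, opposite to Ccl5.

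**Figure D5:**
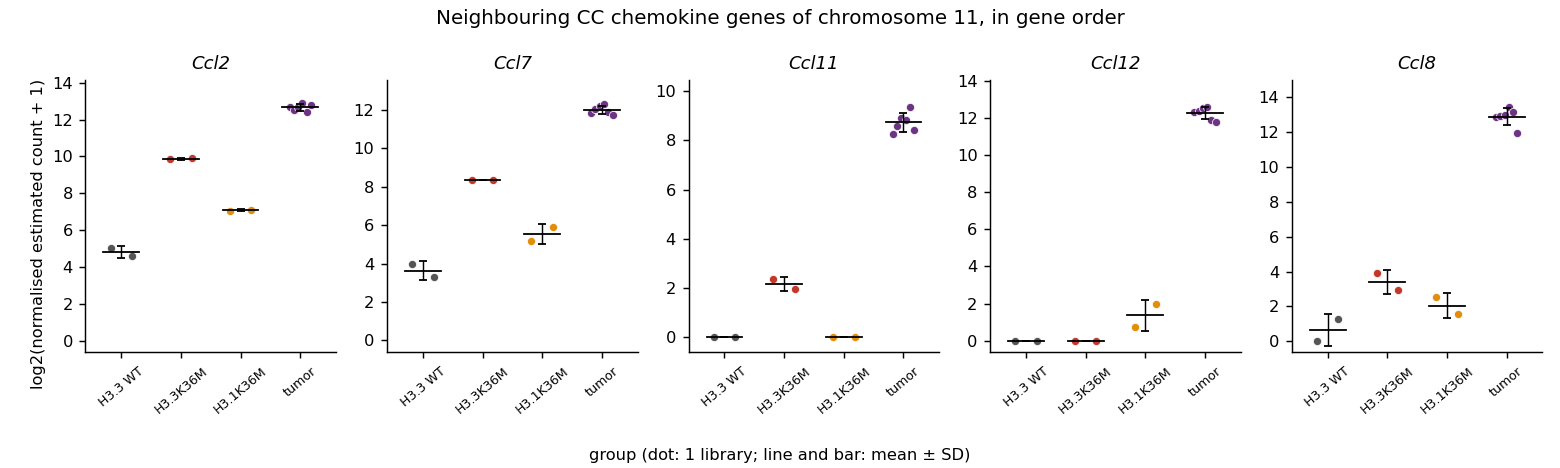
Level of 5 neighbouring CC chemokine genes of chromosome 11 in gene order (y axis, log2 of normalised estimated count + 1, each panel with its own range) in cultured lines (n = 2 each) and tumors (n = 6); dots are libraries, lines and bars are mean and SD. Ccl11 and Ccl12 did not exceed 4.13 normalised estimated counts in any cultured library, and all 5 genes were higher in every tumor than in any cultured library.

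On chromosome 5, Cxcl5 is followed by Ppbp, Pf4, Cxcl3, Cxcl15, Cxcl1 and Cxcl2. In tumors Cxcl5 and Cxcl1 were lower than in H3.3K36M cells, while Pf4 rose and Cxcl2 was 44.5 to 118 from a listed 0 in the cells. Cxcl10 lies 2 genes from Cxcl9, with Art3 between them, and Cxcl9 was 2.47 and 1.89 in H3.3K36M cells and 270.2 to 432 in tumors. Cx3cl1 lies between Ccl22 and Ccl17 on chromosome 8. Ccl17 was 32.4 and 34.2 in H3.3K36M cells and 83.7 to 193 in tumors, and Ccl22 was 0.58 and 0 in the cells and 251 to 584 in tumors, so all 3 were higher in each tumor than in the cells. Of the GENCODE transcripts, those of Ccl2, Ccl5, Ccl7, Ccl8, Ccl20, Cxcl1 and Cx3cl1 shared no window of 36 bases with another gene. Cxcl10 shared 4.23% of its windows with Art3, which overlaps it, Cxcl5 shared 0.703% with several genes and Cxcl12 shared 0.0244%.

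The genes whose level followed Ccl2 most closely over the 12 libraries of the second table, by Pearson's r on the log2 scale among 15026 genes, were Zfp467 (r = 0.996), Pet2 (0.994), Fam65c (0.994), Atp8a1 (0.994) and Scn8a (0.992). Those closest to Cxcl12 were Ank2 (0.992), Aplf (0.989), Itga11 (0.989), Mal (0.988) and Kcnt2 (0.987). The 12 points share 6 tumors that stand apart from the cells, so these values describe likeness of pattern only.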

How the data were processed

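RNA taken up in Trizol was made into TruSeq libraries, per the labels' protocols. Reads were aligned with Bowtie 1.0.0 and quantified with RSEM 1.2.12 on mm9, per the submitters' processing notes. Each deposited table holds, for 20325 genes, a signal made by the authors from estimated counts scaled per library by median normalisation, as the deposited tables are named. The siRNA table and the xenograft table were scaled separately (1.32 to 1.35 times for the 4 libraries in both), so tests stay within a table. Values are multiples of 0.01 of 1 step per library, which gives the estimated reads quoted; whole reads were not recovered, so no count test was run and a limma fit replaced the count test that had been set for count tables.

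Genes with a value of at least 10 in at least 2 libraries were tested on log2(value + 1) with limma 3.58.1 in R 4.3.3 (eBayes with trend and robust options, two-sided, Benjamini-Hochberg over all genes tested, threshold 0.05), in 1 fit of 10 cultured libraries (siRNA table), 1 of 6 cultured libraries and 1 of 8 libraries with the tumors (xenograft table). Genes that would fail the filter without the libraries of their highest group were left out of the counts and medians of lists, a rule added after the values were seen. They were kept in the backgrounds and medians over all genes. The scripts were tested on simulated data. Python 3.11.15, numpy 2.4.6, pandas 2.3.3 and matplotlib 3.10.9 did the rest.

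The members and the gene lists (other ligands, receptors, atypical receptors and ligand processing, NF-kB, interferon response and markers of 8 cell types) were chosen with earlier results of these data known. All members were named, and from each list at most the 4 genes past the threshold with the largest change in a comparison. The labels do not say whether replicate numbers pair samples, so the main fits did not use them. Same-numbered libraries of the siRNA groups correlated at 0.079, 0.028 and 0.076, and differently numbered ones at -0.149 to 0.089. These values were centred within each small group, so they cannot settle whether samples were paired. Promoters are from RefSeq (GRCm38.p6), which listed 6 of the 10 members. Alternatives were another pseudocount, other filters, quantile normalisation, plain eBayes, fits of other sets of libraries, a replicate block and leaving out each library. Some genes of the lists are not reported here. The third table, which repeats 4 libraries, was tested only as an alternative fit of H3.3K36M against H3.3WT cells.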

Additional observations from a re-analysis of the deposited data

Results flagged for a closer look

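By the interaction test, the response to H3.3K36M exceeded that to HMT siRNA for 3 of 6 counted members, against 27.5% of all genes. The differences were 2.09 for Ccl2, 2.00 for Ccl7 and 0.50 for Cx3cl1. For Cxcl12 the difference was -0.52, with the larger rise after HMT siRNA, 1 of 6 against 27.4% of all genes. Ccl5 was also flagged, at 3.08, but is not counted. It passed the filter only through the H3.3K36M libraries, and its call did not hold in every alternative.

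Among the 6 tumors the highest library lay apart from the next one for 2 members, both at few reads. For Cxcl5 tumor 3, at 29.9, lay apart by 0.716 of the whole range. For Ccl20 tumor 5, at 7.22 or 5.00 estimated reads, lay apart by 0.628 of the range, a gap of 1 read to the next library in reads, tumor 1 with 4.00. Both gaps exceed Dixon's 95% critical value for 6 samples, which chance passes in about 1 in 20 groups.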

How the results depend on the processing

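Over all alternatives, 570 member results kept their direction and their side of the threshold, 9 lost their call, 2 gained one and 7 reversed. All reversals were of Ccl5 differences that did not pass the threshold. Against control siRNA cells its H3.3WT difference was 0.015 with a pseudocount of 10, 0.81 without H3.3WT replicate 1, and 0.24 and 0.16 without control siRNA replicates 1 and 2 (range over single libraries left out, -0.84 to 0.81). In H3.1K36M against H3.3WT cells it was -0.36 after quantile normalisation, -0.60 without H3.3WT replicate 1 and -0.22 without H3.1K36M replicate 2 (range -0.60 to 1.36). The count of members lower in H3.3WT than in control siRNA cells was 1 to 2 when single libraries were left out. With all 12 libraries in 1 fit, genes past the threshold fell from 10652 to 6387 (H3.1K36M against H3.3WT) and from 9141 to 3153 (against H3.3K36M); the cause was not tested. The Ccl5 difference of responses gave adjusted p = 0.0529 with plain eBayes, and that of Cxcl5 gave 0.0455 with a pseudocount of 10. Members under about 10 estimated reads are limited by depth.

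A replicate block changed no member call: with Ccl5 included, 6 of 7 were higher under it in H3.3K36M cells and 6 of 7 after HMT siRNA, and all genes past the threshold went from 9336 to 9557 and from 8375 to 8612. It was not run for H3.3WT against control siRNA cells.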
